A study of Homo sapiens with 8 samples.

Results

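Kinesins, the centrosomal CEP proteins and the centromeric CENP proteins were examined as 80 of the 10105 genes of the count table. The genes were taken by name alone: symbols that begin with KIF and a digit, KIFC, CEP and a digit, or CENP and a letter, without a hyphen. This gave 27 kinesins, 32 CEP genes and 21 CENP genes. By name the set also holds CENPBD1 and CENPBD1P1, which are named after a DNA-binding domain shared with CENPB, and CENPE, a kinesin, and CENPJ, a centriole protein, stand among the CENP genes. RNA-Seq and Ribo-Seq libraries came from HEK293T cells, an established human embryonic kidney line, that were wild-type (WT) or XRN1-null, with 2 biological replicates for each genotype and assay and 8 libraries in all. XRN1 is the main cytoplasmic 5′–3′ exonuclease of mRNA decay. The XRN1-null line was made with Cas9 and a guide against exon 6 of XRN1, and whether it is a single clone is not given in the sources used here. Both genotypes were harvested untreated 24 h after plating on 15 cm dishes.

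Kinesins are ATP-driven motors that walk along or take apart microtubules; some build and position the mitotic spindle and others carry vesicles, organelles or ciliary cargo. CEP proteins assemble the centriole, the pericentriolar material around it and the base of the cilium. CENP proteins mark the centromere and connect it to the kinetochore, to which spindle microtubules attach. In dividing cells such as HEK293T, the spindle motors, centrosome and kinetochore act in mitosis, and many genes of mitotic proteins are transcribed late in the cell cycle.

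RNA-Seq libraries held 33757487 to 38145433 counts and Ribo-Seq libraries 1921641 to 4399542. These RNA-Seq counts exceed the mapped reads that the authors report for their paired-end libraries. Whether both mates were counted is not given in the sources used here. The 80 genes had at least 209 counts in any RNA-Seq library, whereas in Ribo-Seq their median count was 110.5 and the lowest was 5, so ribosome-protected fragments (RPF) were measured with less precision than mRNA. Except for KIF17, all had at least 10 counts in every library. Levels are given as CPM, counts per 1000000 of the TMM-scaled library total, and a log2 change is that of XRN1-null over WT with its standard error. XRN1 itself served as a check of the labels: its RPF were 34.4 and 49.9 CPM in WT and 22.6 and 18.4 CPM in XRN1-null cells, lower in both null libraries, while its mRNA was 33.5 and 33.0 CPM in WT and 282 and 253 CPM in XRN1-null cells. Of 7 marker genes of HEK293T, 5 were in the table, of which EYA1 (-0.83) and NEFM (-0.59) were lower in mRNA of XRN1-null cells and none was higher. Of 10 markers of other cell types 1, COL1A1, was in the table. COL1A1 mRNA stood at 13.9 and 15.4 CPM in WT and 36.9 and 37.3 CPM in XRN1-null cells. The part of such genes in the results was not tested.

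In the WT cells, mRNA levels per gene width (RPKM, CPM per kilobase of the deposited width) of the 80 genes ranged from 2.10 ± 0.453 for KIF5A, a neuronal conventional kinesin, to 110 ± 2.30 for CENPV (SD, n = 2). Their median of 8.31 lay below the 15.0 of all genes. Among the mitotic kinesins the highest level was that of KIF22, a chromosome arm motor (37.6 ± 6.59), and the lowest that of KIF18A, which dampens chromosome oscillations (7.07 ± 0.132). The widely used cargo motor KIF5B (47.8 ± 0.209), CEP78 (22.5 ± 1.71) and CENPU (48.6 ± 1.98) had the highest levels of the transport kinesins, the centriole CEP genes and the constitutive centromere, and the midbody protein CEP55 stood at 35.8 ± 4.31. CEP112 (2.56 ± 0.00514) and CEP41 (2.42 ± 0.175), which acts in tubulin glutamylation, stood at the lower end (SD, n = 2 throughout).

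Translational efficiency (TE), RPF divided by mRNA for each gene, spanned a wide range in WT cells. The log2 TE was highest for CENPW, a histone-fold protein of the inner kinetochore, at 1.30 and 0.87 in the 2 replicates, followed by CEP97, a centriole cap protein, at 1.01 and 1.10, and KIF3A at 0.93 and 1.12. These 3 overlapped and cannot be ordered. The lowest were KIF3B at -2.19 and -2.37, CENPB, which binds a box in centromeric repeats, at -1.77 and -2.32, and KIF1C at -1.86 and -2.23, which overlapped as well. KIF3A and KIF3B are subunits of the same heterotrimeric ciliary motor: KIF3B had an mRNA RPKM of 17.2 ± 0.0724 and KIF3A of 5.73 ± 0.626 (SD, n = 2), while their RPF were 22.9 and 20.4 CPM for KIF3B and 64.1 and 85.2 CPM for KIF3A. Neither was called for TE between genotypes, with log2 changes of 0.21 ± 0.21 for KIF3B and 0.08 ± 0.18 for KIF3A. By role, the median log2 TE was 0.19 for the 13 mitotic kinesins and -0.56 for the 14 transport and signalling kinesins, beside -0.12 for all 80 genes and -0.30 for all genes of the table.

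**Figure D1:**
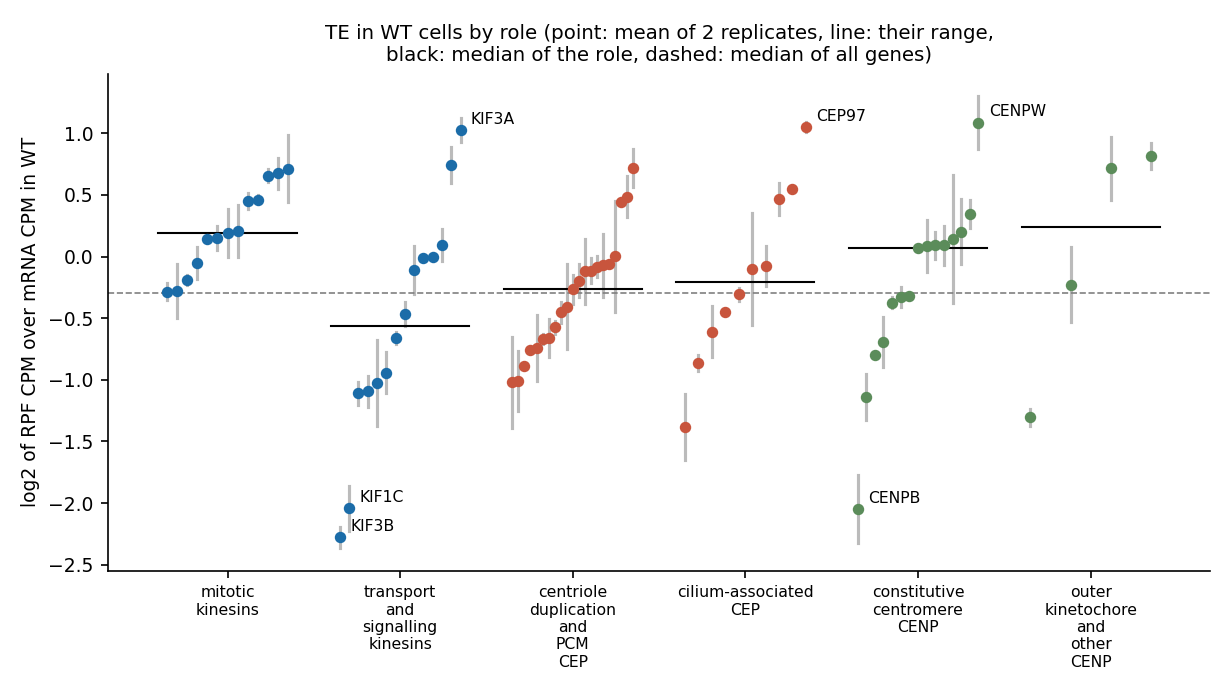
Log2 of RPF CPM over mRNA CPM in WT cells (y axis) for 77 genes in 6 roles, grouped by role on the x axis and sorted within it; points are means of 2 replicates, grey lines join the replicates, black lines are medians of a role and the dashed line is the median of all genes (-0.30). KIF3B, CENPB and KIF1C lie below all other genes.

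The bases around the start codon are shown for the genes at both ends of this range, since start codon context is a known feature of translation initiation. Each line runs 5′ to 3′ from 12 bases before the start codon in the GENCODE canonical transcript, with the base at position -3, the start codon and the base after it in capitals.
KIF3A: gagggggccAagATGCcgatcaat
CENPW: ttgacagagAggATGGcgctgtcg
CEP97: caagcagcaAatATGGcggtggcg
KIF3B: tcagagttcAtcATGTcaaagttg
CENPB: gggcgcgccGggATGGgccccaag
KIF1C: gtgtctggaGctATGGctggtgcc
All 6 carry a purine at position -3, so this base did not separate high from low TE. Over the 75 genes with a context, the median log2 TE in WT cells was -0.28 for the 39 with a purine at -3 and G after the start codon, -0.07 for the 29 with the purine only and -0.45 for the 7 without the purine. The coding share of the transcript had no relation to the log2 TE in WT cells across 78 genes (Spearman's rho 0.02), whereas GC content of the transcript was inversely related to it (rho -0.40); these correlations are across genes that share the same libraries and are descriptions.

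In XRN1-null cells the mRNA of 36 of the 80 genes (45.0%) was higher and that of 6 (7.5%) was lower, beside 22.9% and 23.2% of all genes (edgeR's quasi-likelihood test, FDR below 0.005). Higher levels were spread over motors and centrosome proteins: 15 of 27 kinesins and 17 of 32 CEP genes were higher, with 1 kinesin and no CEP gene lower. Of the 21 CENP genes 4 (19.0%) were higher and 5 (23.8%) lower, near the shares of all genes. The median mRNA log2 change was 0.41 for kinesins, 0.49 for CEP and 0.01 for CENP genes, and -0.02 for all genes. In 57 of the 80 genes both XRN1-null libraries exceeded both WT libraries in mRNA (41% of all genes did), and in 17 both were below (43.7% of all genes). With either WT RNA-Seq library left out all 36 remained higher. Without XRN1-null replicate 1 or 2, 25 and 23 did, while the share of all genes called higher went from 22.9% to 16.2% and 16.3%. Without WT replicate 1 or 2 the number of lower genes went from 6 to 10 and 12, and the share of all genes called lower from 23.2% to 30.8% and 33.5%.

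**Figure D2:**
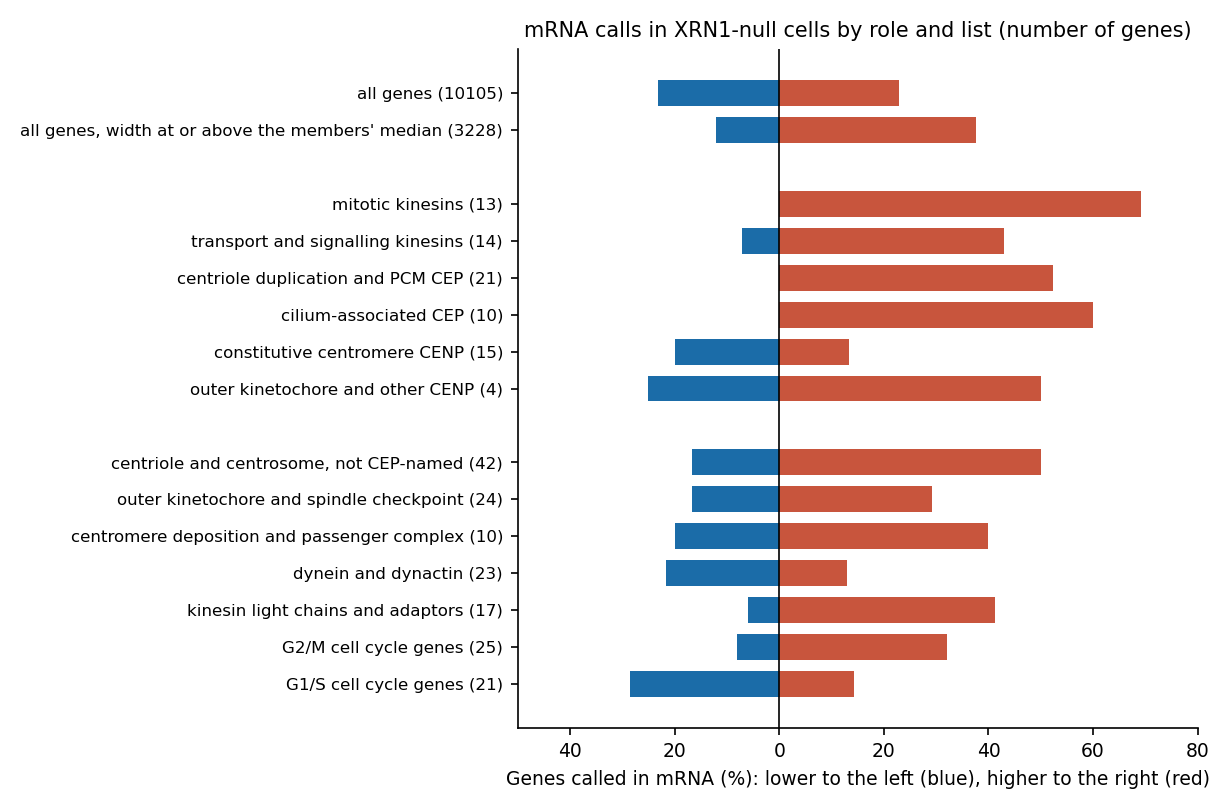
Percent of genes called lower (left, blue) and higher (right, red) in mRNA of XRN1-null cells at FDR below 0.005 (x axis) for all genes, the roles of the 80 genes and lists of the same machinery (y axis, number of genes in parentheses). Mitotic kinesins (69.2% higher) and both CEP groups have no gene on the left side, unlike the constitutive centromere genes (2 of 15 higher, 3 lower).

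Coding length went along with these mRNA changes. The canonical transcripts of 77 of the genes had a median coding length of 2556 nt, against 1362 nt for the 9322 genes with a coding length in the table. Divided at the quartiles of their coding lengths, 2 of 20 genes up to 1791 nt, 31.6% up to 2556 nt, 57.9% up to 4014 nt and 89.5% of the longer ones were higher in mRNA. For all genes within the same bounds the shares were 12.9%, 30.8%, 44.1% and 63.5%. Spearman's rho of coding length and mRNA log2 change was 0.59 over the 77 genes and 0.50 over all genes. Deposited gene width gave a weaker relation (0.31 over the 80 genes and 0.35 over all genes), and of the 3228 genes at least as wide as the median of 4326 nt, 37.6% were higher. With an offset for coding length, an alternative chosen after seeing the data, 17 of the 77 genes were higher (16 of the 36 and CENPO) and 10 lower, beside 17.3% and 19.7% of all genes. The median log2 change of the 77 was 0.12 in place of 0.35. Under that offset CENPE was called lower (-0.30), and CEP152, KIF14, KIF1A and KIF21A were not called and lay between -0.14 and -0.079.

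Of the 13 mitotic kinesins, 9 had higher and none lower mRNA, with a median log2 change of 0.53. KIF15, a spindle motor that works beside KIF11, rose most, from 36.03 and 36.97 CPM in WT to 104 and 99.5 CPM in XRN1-null cells, by 1.48 ± 0.07 (edgeR FDR = 5.11e-06). KIF2C, which depolymerises microtubules at centromeres, rose from 48.1 and 59.96 to 118 and 121 CPM, by 1.14 ± 0.10 (edgeR FDR = 7.18e-05). KIF11, the bipolar motor that pushes spindle poles apart, rose from 108 and 147 to 224 and 236 CPM. In none of the 3 did the groups overlap. The cytokinesis motors KIF20B (0.83 ± 0.07), KIF23 (0.53 ± 0.10) and KIF14 (0.40 ± 0.07), the central spindle motor KIF4A (0.65 ± 0.10), which has the near copy KIF4B, and KIF18A (0.55 ± 0.07) and KIF18B (0.41 ± 0.06) were the others that rose. KIF20A (0.38 ± 0.09), the minus-end motor KIFC1 (0.31 ± 0.10), the spindle pole depolymerase KIF2A (-0.16 ± 0.08) and KIF22 (-0.24 ± 0.11) were not called. With the offset for coding length 3 of the 9, KIF15, KIF2C and KIF20B, stayed higher and KIF2A was called lower. KIF14, KIF18B and KIF23 were lost without either XRN1-null RNA-Seq library.

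WT replicates of these motors differed in both assays. WT replicate 2 exceeded WT replicate 1 in 12 of the 13 mitotic kinesins in mRNA, by a median of 0.28 on the log2 scale, and in all 13 in RPF, by 0.40. Between the XRN1-null replicates the medians were 0.01 and 0.05, and 7 and 8 of 13 were higher in replicate 2. In bulk samples a larger share of mitotic cells and more mRNA per cell cannot be told apart. Of 25 G2/M genes, which mark the same phase of the cell cycle, 8 were higher and 2 lower in mRNA (32.0% and 8.0%, median 0.05), beside 22.9% and 23.2% of all genes. Of those called CDC25C (0.77 ± 0.12) rose most and UBE2C (-0.42 ± 0.06) fell most. Of 21 G1/S genes 3 were higher and 6 lower (14.3% and 28.6%, median 0.13), and of those called MCM5 (0.85 ± 0.14) rose most and CCND1 (-1.47 ± 0.10) fell most.

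RPF of the mitotic kinesins were higher in 11 of the 13 in both XRN1-null libraries than in both WT libraries, as in 32.1% of all genes. For KIF2C, RPF were 47.9 and 78.3 CPM in WT and 121 and 134 CPM in XRN1-null cells, a log2 change of 0.96 ± 0.19 (edgeR FDR = 0.00874). KIF11 RPF were 158 and 256 CPM in WT and 390 and 402 CPM in XRN1-null cells, and those of KIF23 were 72.9 and 102 CPM in WT and 161 and 149 CPM in XRN1-null cells. The change was 0.92 ± 0.19 for KIF11 and 0.80 ± 0.17 for KIF23 (edgeR FDR = 0.0107 for both). None of these passed the threshold of 0.005 in the main fit. With replicate number as a block, which the labels do not say pairs samples, KIF2C, KIF11, KIF23, KIF15, KIF20B and KIF4A did. In that fit 6.1% of all genes were higher. At an FDR below 0.05 in the main fit, 6 of the 13 mitotic kinesins were higher in RPF and none was lower, beside 7.07% and 8.38% of all genes.

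The promoters of mitotic kinesins are shown around a short element, TTTGAA or TTCGAA on either strand, that is known from cell cycle genes as the cell cycle homology region (CHR), because 9 of the 13 had higher mRNA. In the 250 bases before the RefSeq start site it occurred in 16 of the 70 genes with a promoter (22.9%) and in 14.3% of all 35116 promoters. Together with a CCAAT element it occurred in 14 of the 70 and in 5.1% of all promoters. CCAAT with or without the CHR occurred in 52.9% of the 70 and in 32.0% of all promoters. The 70 genes have a single promoter each, whereas the 35116 promoters are not limited to genes of the table. The windows below, from GRCh38.p14, give the motif in capitals with up to 20 bases on each side, in the direction of transcription. They lie at chr10:92593082-92593127 (plus strand) for KIF11, chr3:44761739-44761784 (plus) for KIF15, chr11:28108157-28108186 (minus) for KIF18A, chr15:69414274-69414319 (plus) for KIF23, chrX:70290050-70290095 (plus) for KIF4A and chr16:29790704-29790749 (plus) for KIF22.
KIF11: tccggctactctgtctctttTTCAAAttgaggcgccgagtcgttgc
KIF15: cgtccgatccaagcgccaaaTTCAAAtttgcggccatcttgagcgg
KIF18A: gctgaggaaagtggcttgggTTTGAAtatt
KIF23: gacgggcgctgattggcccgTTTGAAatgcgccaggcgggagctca
KIF4A: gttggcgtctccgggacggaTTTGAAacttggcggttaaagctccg
KIF22: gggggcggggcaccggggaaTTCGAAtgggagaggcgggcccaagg
Each of the 6 motifs lies within 55 bases of the start site. The first 5 genes had higher mRNA in XRN1-null cells, and KIF22 did not. KIF2C, KIF14, KIF18B and KIF20B also had higher mRNA, and no match was found for them. Over all 70 genes the median mRNA log2 change was 0.54 with the motif (10 of 16 higher) and 0.32 without it (23 of 54 higher). Motif matches are descriptions of these bases.

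Among the 14 transport and signalling kinesins, 6 were higher and 1 lower in mRNA. KIF24, a centriolar kinesin that restrains cilium formation, rose from 20.2 and 19.7 CPM to 80.1 and 78.3 CPM, by 1.99 ± 0.07 (edgeR FDR = 2.51e-06). KIF7, a Hedgehog regulator at the cilium tip (0.66 ± 0.08), the axonal vesicle motors KIF1A (0.37 ± 0.07) and KIF1B (0.57 ± 0.07), the endosome motor KIF16B (0.51 ± 0.08) and KIF21A (0.42 ± 0.07) also rose. With the offset for gene width 2 of the 6, KIF24 and KIF7, stayed higher, with KIF1A at -0.0207 and KIF1B at -0.16, and with that for coding length only KIF24 did. KIF1A and KIF21A were lost without either XRN1-null RNA-Seq library and KIF16B without replicate 2. KIF5C, a conventional kinesin of neurons, fell from 50.9 and 53.1 to 35.1 and 33.0 CPM, by 0.61 on the log2 scale (edgeR FDR = 0.000194), without overlap. KIF5C had no coding length in the fit with that offset and was not tested there.

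Close relatives within the kinesins were set side by side without a test. Of the 3 conventional kinesins, KIF5C fell, while KIF5A (0.56 ± 0.15, edgeR FDR = 0.0106) and KIF5B (0.20 ± 0.06, edgeR FDR = 0.0185) lay above 0 and were not called. KIF5A RPF were 6.77 and 11.03 CPM in WT and 19.9 and 19.0 CPM in XRN1-null cells, a log2 change of 1.02 ± 0.24, which was the highest RPF change among the 80 genes (edgeR FDR = 0.0177). KIF1C had a change of -0.12 ± 0.07 beside the rises of KIF1A and KIF1B. Of the depolymerases, KIF2C rose and KIF2A did not, and KIF20B rose while KIF20A was just outside the threshold (edgeR FDR = 0.00804). CEP57 (0.08 ± 0.06) and its relative CEP57L1 (0.31 ± 0.09) were not called.

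KIF17, a ciliary and dendritic motor named here after its values were seen, had RPF counts of 12 and 43 in the WT libraries against 9 and 5 in the XRN1-null ones, that is 6.25 and 9.88 CPM against 2.24 and 1.56 CPM. Its RPF log2 change of -2.14 ± 0.42 was the lowest among the 80 genes, beside -0.26 ± 0.11 in mRNA (edgeR FDR = 0.0083 and 0.0689). Neither passed the threshold, and the counts behind the RPF are few.

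The 21 CEP genes of centriole duplication and the pericentriolar material all had a positive mRNA log2 change, and 11 passed the threshold. CEP295, needed to convert a new centriole into a centrosome, rose most of all 80 genes, from 43.6 and 39.7 CPM to 199 and 186 CPM, by 2.21 ± 0.08 (edgeR FDR = 2.92e-06). CEP192, which recruits pericentriolar material, rose from 30.1 and 29.99 to 86.1 and 81.2 CPM, by 1.48 ± 0.07 (edgeR FDR = 5.43e-06). CEP95 rose from 43.96 and 41.93 to 119 and 117 CPM, by 1.46 ± 0.07 (edgeR FDR = 5.33e-06). In none of these 3 did the genotypes overlap. CEP250, part of the linker between the centrioles, rose by 0.74 ± 0.07, CEP152, a scaffold of the kinase PLK4, by 0.42 ± 0.09 and CEP112 by 0.99 ± 0.09, while CEP78 (0.16 ± 0.07) was not called. With the offset for coding length 8 of the 11 stayed higher, without CEP152, CEP250 and CEP350. CEP152 was also lost without either XRN1-null RNA-Seq library.

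Of the 10 CEP genes associated with the cilium, 6 were higher and none lower. CEP162 rose from 12.8 and 13.3 to 37.77 and 36.97 CPM, by 1.52 ± 0.08 (edgeR FDR = 8.66e-06). CEP164, a protein of the distal appendages that dock the centriole to the membrane, rose by 1.12 ± 0.10, the satellite protein CEP131 by 1.08 ± 0.11 and the transition zone protein CEP290 by 0.90 ± 0.09. CEP83 (0.51 ± 0.08) and CEP97 (0.48 ± 0.08) were the other members that rose, and CEP41 (-0.16 ± 0.10) was not called. With the offset for coding length CEP131, CEP162 and CEP164 stayed higher. CEP97 was lost without either XRN1-null RNA-Seq library and with the offset for gene width, and CEP83 without XRN1-null RNA-Seq replicate 2. None of these 10 genes passed the threshold in RPF or TE. CEP55, which acts in abscission, had a change of 0.36 ± 0.09 in mRNA and 0.48 ± 0.14 in RPF and was not called.

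Of the 15 genes of the constitutive centromere 2 were higher, 3 were lower and 10 were not called, with a median log2 change of 0.01. CENPC, which links centromeric chromatin to the kinetochore, rose from 14.2 and 13.3 to 20.1 and 19.0 CPM, by 0.51 ± 0.09, and CENPM rose by 0.31 ± 0.06. CENPH fell from 66.5 and 65.6 to 36.98 and 36.97 CPM, by 0.84 (edgeR FDR = 3.04e-05), and CENPB from 126 and 134 to 77.9 and 78.3 CPM, by 0.73 (edgeR FDR = 6.35e-05). CENPN, a reader of the centromeric histone, fell by 0.46, but without XRN1-null RNA-Seq replicate 2 it was not called. The rises of CENPC and CENPM, and those of CENPE and CENPJ below, were lost without either XRN1-null RNA-Seq library. With either length offset the rises of CENPE and CENPJ were lost, and with that for coding length the rise of CENPC was. The centromeric histone CENPA (-0.15 ± 0.10) and CENPU (0.01 ± 0.06) were not called. Of the other CENP genes, CENPE (0.35 ± 0.07) and CENPJ (0.43 ± 0.08) rose, and CENPBD1 fell from 20.2 and 19.7 to 9.54 and 9.71 CPM, by 1.05 (edgeR FDR = 5.38e-05), while its RPF of 11.98 and 7.81 CPM in WT and 5.96 and 12.2 CPM in XRN1-null cells overlapped.

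CENPV (chromosome 17, 16245848 to 16256970, minus strand, hg19), the most abundant of the 80 mRNAs per width, was the only gene of the set called in RPF. Its mRNA fell from 130 and 126 CPM to 69.0 and 68.9 CPM, by 0.89 (edgeR FDR = 2.42e-05). Its RPF fell from 55.2 and 48.7 CPM to 23.8 and 22.2 CPM, by 1.15 (standard error 0.16, edgeR FDR = 0.00232). The groups overlapped in neither assay, and the TE log2 change of -0.26 ± 0.15 was not called (edgeR FDR = 0.353). CENPV has an annotated near copy, with which it may share reads, and shares 258 exonic bases with PIGL on the other strand (mRNA log2 change -0.30 ± 0.13).

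Over the 80 genes, none was called higher and 1 lower in RPF, beside 0.633% and 1.14% of all genes. At an unadjusted p under 0.05, 27 were higher and 6 lower, beside 16.2% and 16.8% of all genes, and DESeq2 called 3 higher (KIF2C, KIF11 and KIF23). At an FDR below 0.05, 14 were higher and 4 lower, beside 7.07% and 8.38% of all genes. In 43 genes both XRN1-null libraries exceeded both WT libraries (32.1% of all genes did). The RPF count depended on the WT libraries: without WT Ribo-Seq replicate 1 or 2, 11 and 23 genes were higher and 4 and 2 lower. Calls over all genes went up as well, to 5.82% higher and 7% lower without replicate 1 and to 12.7% and 10.8% without replicate 2. Across the 80 genes the RPF change followed the mRNA change with a Spearman's rho of 0.62, and with 0.69 across all genes.

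**Figure D3:**
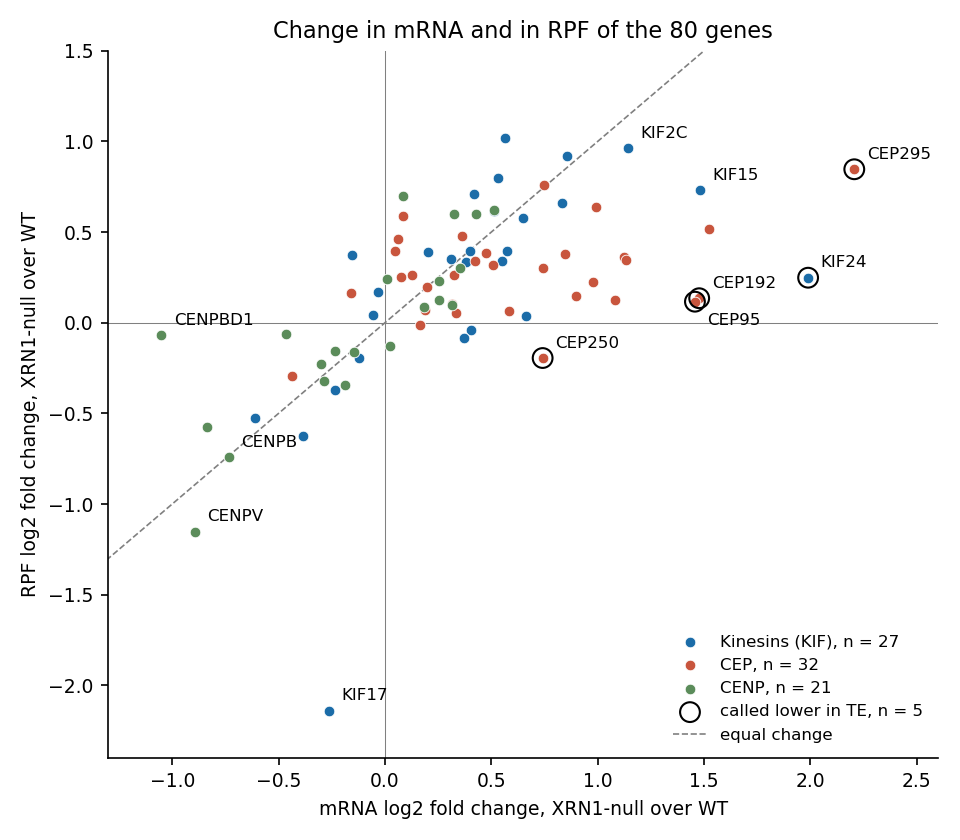
RPF log2 fold change (y axis) against mRNA log2 fold change (x axis), XRN1-null over WT, for 27 kinesins (blue), 32 CEP genes (red) and 21 CENP genes (green); the dashed line marks equal change and circles mark the 5 genes called lower in TE. These 5 lie right of and below the line, with mRNA changes from 0.74 to 2.21 and RPF changes from -0.19 to 0.85.

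Among the 36 genes with higher mRNA the RPF changes were smaller: the median was 0.74 in mRNA and 0.37 in RPF, and in 29 of the 36 the RPF change was the lower. These genes were selected on the mRNA values themselves, which favours a smaller change in the other assay. In 25 of them both XRN1-null libraries still exceeded both WT libraries in RPF, and in CEP250 both were below. All 2313 genes with higher mRNA had medians of 0.70 and 0.33, and in 64.4% and 7.05% of them both XRN1-null libraries lay above or below both WT libraries in RPF, beside which the 36 genes had similar values. The TE log2 change was above 0 in 7 of the 36 and in 353 of the 2313.

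TE was lower in 5 of the 80 genes and higher in none, beside 1.78% and 0.0495% of all genes. They were KIF24, CEP95, CEP192, CEP250 and CEP295, and all belong to the 36 with higher mRNA. Over all genes, 175 of the 180 with lower TE were likewise higher in mRNA. The TE change subtracts the mRNA change of the same RNA-Seq libraries, so part of this overlap is built in. KIF24 (chromosome 9, 34252378 to 34329266, minus strand, hg19) had RPF of 9.38 and 11.5 CPM in WT and 14.9 and 10.3 CPM in XRN1-null cells, which overlapped, beside a 3.97-fold rise in mRNA. Its TE log2 change was -1.74 ± 0.25 (edgeR FDR = 0.00163). CEP295 (chromosome 11, 93394848 to 93463524, plus strand) had the highest RPF change of the 5, with 16.7 and 25.3 CPM in WT and 41.2 and 38.4 CPM in XRN1-null cells, a log2 change without overlap of 0.85 ± 0.19 (edgeR FDR = 0.014). Against 2.21 in mRNA this left a TE log2 change of -1.37 ± 0.21 (edgeR FDR = 0.00219).

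For CEP95 (chromosome 17, 62502983 to 62538579, plus strand), RPF were 26.6 and 24.4 CPM in WT and 26.8 and 27.8 CPM in XRN1-null cells, higher by little in both, and the TE log2 change was -1.34 ± 0.16 (edgeR FDR = 0.000472). CEP192 (chromosome 18, 12991361 to 13125051, plus strand) had overlapping RPF of 37.5 and 47.1 CPM in WT and 41.7 and 54.0 CPM in XRN1-null cells, with a TE log2 change of -1.36 ± 0.18 (edgeR FDR = 0.00103). CEP250 (chromosome 20, 34042985 to 34107108, plus strand) had RPF of 38.02 and 39.28 CPM in WT and 33.77 and 34.02 CPM in XRN1-null cells, and its TE log2 change was -0.94 ± 0.15 (edgeR FDR = 0.00321). In CEP250 alone the RPF of both XRN1-null libraries lay below those of WT, and the RPF change of -0.19 ± 0.15 was not called. At an FDR below 0.05, 10 genes were lower in TE, beside 6.46% of all genes, among them KIF15 (-0.76 ± 0.17), CEP162 (-1.001 ± 0.25) and CEP290 (-0.76 ± 0.19), and none was higher, beside 1.02% of all genes. Calls in TE depended on the libraries used, and CEP295 was not called without WT RNA-Seq replicate 2. None of the 5 passed without XRN1-null Ribo-Seq replicate 1, 1 gene was called without XRN1-null Ribo-Seq replicate 2, WT Ribo-Seq replicate 2 or XRN1-null RNA-Seq replicate 1, and 3 without XRN1-null RNA-Seq replicate 2, while all 5 changes stayed below 0. Over all genes the share lower in TE likewise went from 1.78% to 0.188%, 0.455%, 0.94%, 0.683% and 0.871% without these libraries in the same order.

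**Figure D4:**
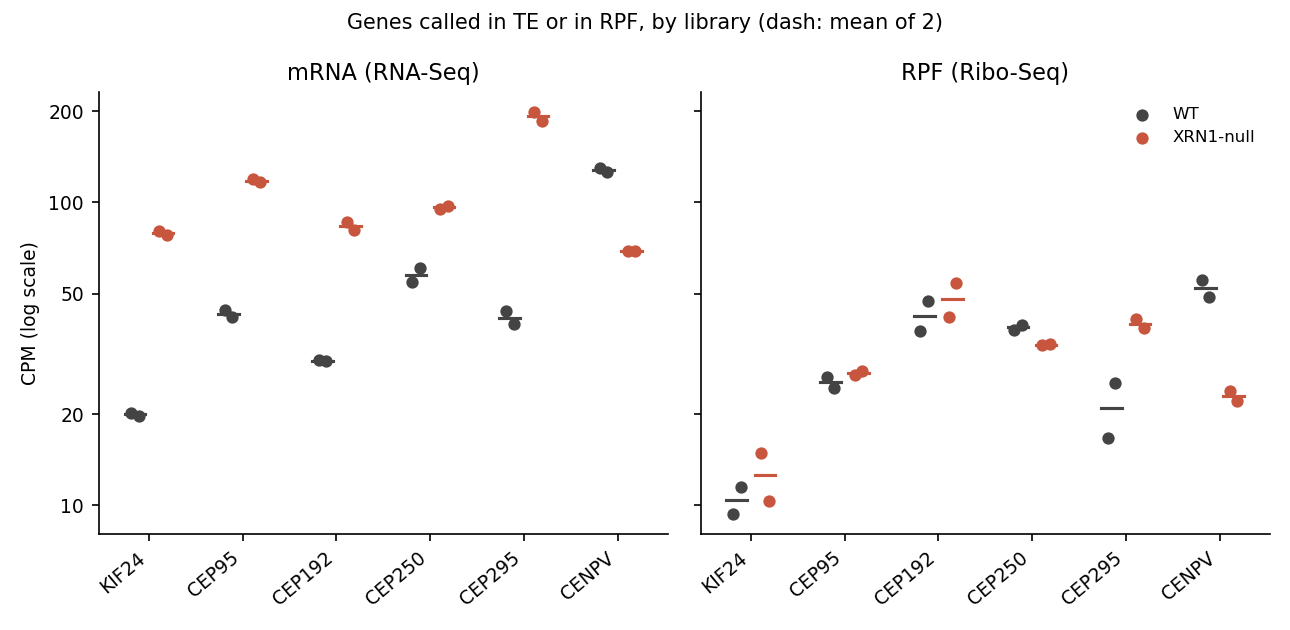
CPM in each library (y axis, log scale) of the 5 genes called lower in TE and of CENPV (x axis), in RNA-Seq (left) and Ribo-Seq (right); grey points are WT, red points XRN1-null, and dashes are means of 2 replicates. In RNA-Seq the genotypes are separated for all 6 genes, whereas in Ribo-Seq those of KIF24 and CEP192 overlap.

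Of the 5 genes with lower TE, 4 had long coding regions, up to 7803 nt in CEP295, and CEP95 with 2463 nt lay near the median of 2370 nt of the 73 others with an annotation. The median of the 5 was 7326 nt, and their transcripts had 13 to 45 exons. Of all genes with a coding length over 4014 nt, 8.92% were lower in TE, and of the 19 such genes of the set 21.1% were. With the offset for coding length CEP95 and CEP192 stayed lower in TE, and KIF24 (-1.48, edgeR FDR = 0.00524), CEP295 (-0.92, edgeR FDR = 0.0123) and CEP250 (-0.52, edgeR FDR = 0.0684) did not pass. The bases around the start codon are shown for the 4 of these genes with a start context in the annotation, with the same capitals as above.
KIF24: ctattcaccAaaATGGcatcctgg
CEP95: tgcctctgaAacATGGcaggctcg
CEP250: cctggtgccCtcATGGagacaaga
CEP295: aagtacacaGaaATGAagagaaaa
CEP250 lacks the purine at -3, and the other 3 have it.

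Exons of 37 of the 80 genes overlap those of a gene on the other strand, and whether the counting used strand is not given in the sources used here, so reads in these stretches cannot be assigned with certainty. Of these 37 genes 43.2% were higher in mRNA, and of the other 43 genes 46.5% were. TE was lower in 4 of the 37 and in 1 of the other 43. KIF24 shares 144 exonic bases with UBAP1 (mRNA log2 change 0.18 ± 0.07), CEP95 252 with DDX5 (0.11 ± 0.07) and 180 with SMURF2 (0.20 ± 0.07), and CEP295 250 with TAF1D (0.43 ± 0.07). RPF of DDX5 changed by 0.70 ± 0.21, and those of CEP95 by 0.12 ± 0.17. CEP295 also shares 1071 bases with another annotated gene, KIF24 184 with the pseudogene SERPINH1P1 and CEP250 222 with CEP250-AS1, none of which has counts here. The part of shared reads in these results was not tested. CEP192 shares no exonic bases with a gene on the other strand.

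Other genes of the same machinery were counted in lists. Over all genes, 22.9% were higher and 23.2% lower in mRNA, 1.14% were lower in RPF, and 1.78% were lower and 0.0495% higher in TE. Of 42 centriole and centrosome genes without a CEP name, 21 were higher and 7 lower in mRNA (median 0.29), 3 were lower in TE and 1 higher. Lower in TE were PCNT, the pericentrin scaffold of the pericentriolar material (TE log2 change -1.04 ± 0.14, edgeR FDR = 0.00114), the spindle pole protein WDR62 (-1.84 ± 0.16, edgeR FDR = 4.95e-05) and RTTN (-1.39 ± 0.20, edgeR FDR = 0.00161), which also had the largest mRNA rise of the list (1.55 ± 0.09). The centrin CETN2 had the largest fall (-0.80 ± 0.07). The centrin CETN3 was higher in TE (0.85 ± 0.14, edgeR FDR = 0.00406), with mRNA of 33.0 and 31.1 CPM in WT and 21.3 and 21.0 CPM in XRN1-null cells. MZT2A and MZT2B, near-identical subunits of the gamma-tubulin complex named after their values were seen, were the 2 lower in RPF (-0.95 and -0.86).

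Dynein and dynactin, the motor complex that moves opposite to most kinesins, had 3 of 23 genes higher and 5 lower in mRNA (median 0.04), of which the light chain DYNLT1 fell most (-0.80 ± 0.08). Its heavy chain DYNC1H1 rose from 156 and 163 to 450 and 418 CPM in mRNA, while its RPF were 310 and 365 CPM in WT and 335 and 365 CPM in XRN1-null cells, and its TE was lower (-1.40 ± 0.15, edgeR FDR = 0.00022). Kinesin light chains and adaptors had 7 of 17 genes higher and 1 lower (41.2% and 5.88%, median 0.30). Of those called KLC3 (1.10 ± 0.08) rose most, and MAPK8IP2 (-0.67 ± 0.11) fell and was also lower in RPF. Of 24 outer kinetochore and checkpoint genes 7 were higher and 4 lower (29.2% and 16.7%, median -0.02), not far from the 22.9% and 23.2% of all genes. Of those called KNTC1 (0.95 ± 0.07) rose most and MIS12 (-0.73 ± 0.08) fell most. Of 10 genes of centromere deposition and the passenger complex 4 were higher and 2 lower (median 0.21), and MIS18A (-0.52 ± 0.06) fell most.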

How the data were processed

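The authors filtered out rRNA reads (Bowtie2), aligned the remainder to hg19 (Tophat2), kept footprints of 29 and 30 nt, counted reads per gene with QuasR and filtered genes at an FPKM of 2. They deposited raw counts with a gene width. Their fold changes, p-values and TE comparisons were also deposited and were not used.

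Counts of all 10105 genes were fitted with edgeR 4.0.16 in R 4.3.3 (TMM within assay, quasi-likelihood test, Benjamini-Hochberg adjustment, FDR below 0.005). TE was the interaction of assay and genotype over 8 libraries. Standard errors are the log2 change over the square root of F. The members, roles, lists and the rule for named genes were chosen with earlier results of these data known. Named were genes called in TE or RPF, the 6 largest mRNA rises and falls, the 3 highest and lowest WT TE, the extremes of WT RPKM by role and paralog pairs. Other members appear as examples. Positions came from GENCODE release 44 on GRCh37 (78 genes matched) and promoters from RefSeq GRCh38.p14 (70 matched). The labels do not say how replicates were separated, so p-values measure the spread between these samples. Counts may include PCR duplicates. Alternatives were RLE factors, library totals, DESeq2 1.42.0, a count minimum of 10, FDR 0.05, replicate blocks, length offsets (loess span 0.3), thinned RNA-Seq counts and leaving out each library. The code was tested on simulated counts. Some genes that this rule names are not reported here.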

Additional observations from a re-analysis of the deposited data

Results flagged for a closer look

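In 5 genes the change between genotypes differed between Ribo-Seq and RNA-Seq by the test of the interaction (edgeR's quasi-likelihood test, FDR below 0.005): KIF24 (-1.742), CEP192 (-1.356), CEP250 (-0.9374), CEP295 (-1.366) and CEP95 (-1.339), each value being the RPF less the mRNA log2 change. All 5 were lower in TE, and DESeq2 called the same 5. Leaving out single libraries moved the change of KIF24 from -2.06 to -1.53, of CEP192 from -1.54 to -1.13, of CEP250 from -1.02 to -0.88, of CEP295 from -1.54 to -0.93 and of CEP95 from -1.41 to -1.29, so the direction held in each of these fits.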

How the results depend on the processing

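Higher mRNA was called in 36 genes and in 41 with library totals, 43 with DESeq2 and 44 when replicate number entered as a block (22.9%, 26.4%, 26.7% and 28.3% of all genes), and lower mRNA in 6 and in 11 at FDR 0.05 (23.2% and 34.2% of all genes). The offset for coding length, added after seeing the data, could not be fitted for KIF5C, CENPBD1 and CENPBD1P1 and gave 17 higher and 10 lower in mRNA, 4 higher and 2 lower in RPF and 2 lower in TE. Over all genes it gave 17.3% higher and 19.7% lower in mRNA, 2.72% and 3.49% in RPF and 0.965% lower in TE. It also turned the mRNA change of CENPE to -0.30, CENPF to -0.45, CEP152 to -0.082, CEP170 to -0.41, KIF14 to -0.094, KIF1A to -0.14 and KIF21A to -0.079. The offset for gene width left 26 higher in mRNA, beside 17.9% of all genes, and turned CENPE to -0.00401, KIF1A to -0.0207 and KIF1B to -0.16. Higher RPF went from 0 to 1 with library totals or the width offset, 3 with DESeq2, 13 with the replicate block and 14 at FDR 0.05, where higher RPF over all genes was 0.633%, 1.32% or 1.05%, 1.05%, 6.1% and 7.07%. Lower RPF went from 1 to 3 with the block and 4 at FDR 0.05, beside 1.14%, 6.58% and 8.38% of all genes. Lower TE went from 5 to 10 at FDR 0.05, and to 6, with KIF17, when libraries of the same culture were blocked. Over all genes it went from 1.78% to 6.46% and 4.3%. CEP250 was lost with the width offset and with thinned RNA-Seq counts. Leaving out 1 library gave 23 to 47 genes higher and 5 to 12 lower in mRNA, 0 to 23 higher and 1 to 4 lower in RPF, and 0 to 6 lower in TE, with 0 without XRN1-null Ribo-Seq replicate 1, 1 without XRN1-null Ribo-Seq replicate 2, WT Ribo-Seq replicate 2 or XRN1-null RNA-Seq replicate 1, and 3 without XRN1-null RNA-Seq replicate 2. Without either WT RNA-Seq library, which gave the 47, the share of all genes called higher in mRNA rose as well. The larger number there is therefore not particular to these genes. A group left with 1 library was assumed to vary like the others. The labels do not say that replicate numbers pair samples. Deviations of same-numbered libraries had correlations of 0.19 in mRNA and 0.08 in RPF and TE across genes, and those of RNA-Seq and Ribo-Seq libraries with the same number 0.36 in WT and 0.03 in XRN1-null cells. Of the values of single genes, 2829 kept direction and side of the threshold, 125 passed it only in the alternative, 72 lost it, 73 not called in either changed sign by over 1 standard error, and 10 reversed.

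Ribo-Seq depth limits RPF and TE, with a median of 110.5 counts for these genes, so a difference that was not called is not shown to be absent.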
